A study of Mus musculus with 8 samples.

Results

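The genes described here are the semaphorins, plexins, neuropilins, ephrins, Eph receptors, netrins, Dcc and Unc5 receptors, families that steer growing axons and adjust mature synapses. They were chosen by gene symbol alone, which gave 61 of the 34094 genes in the deposited table. RNA was sequenced from tissue labelled as the CA1 field of the hippocampus, from 4 cKO and 4 WT libraries of C57BL/6 mice aged 2 months. The cKO titles read cko type with Brpf1 knockdown as the genotype, and the series title speaks of a hippocampus-specific loss of Brpf1, which encodes a scaffold of histone acetyltransferase complexes. Neither the driver of the deletion nor the exons removed nor the sex of the animals is stated in the labels. A protocol speaks of 3 pairs of mice while each group has 4 libraries, and no label ties a library to a mouse, so each p-value rests on how much libraries of a group vary, part of which may be technical.

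Semaphorins act mainly through plexins, with neuropilins as the ligand-binding partner for most secreted class 3 members. Ephrins and Eph receptors signal at cell contacts in both directions: ephrin-A ligands are held by a lipid anchor and mainly bind EphA receptors, while ephrin-B ligands span the membrane and mainly bind EphB receptors. Netrins attract axons through Dcc and repel them through Unc5 receptors. In the adult hippocampus these families are known for shaping dendritic spines, mossy fibre and perforant path connections, and glial contacts at synapses.

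Each library held 40330226 to 46559795 reads on genes in cKO and 42346644 to 49897832 in WT. Genes with at least 1 read numbered 26103 ± 472 in cKO and 26918 ± 424 in WT (SD, n = 4), with no overlap (two-sided exact permutation p = 0.0286, the smallest that 4 against 4 can give). Brpf1 itself had 945 ± 87.3 normalized reads in cKO and 1415 ± 55.1 in WT (SD, n = 4), 66.8% of the WT level, again with no overlap (two-sided exact permutation p = 0.0286), although it did not pass limma over all genes (adjusted p = 0.132). Markers of CA1 pyramidal neurons were present, with 16432 to 21798 summed normalized reads in cKO and 16480 to 19513 in WT for 6 genes. Markers of neighbouring fields were present too, with 16168 to 21378 in cKO and 18503 to 22650 in WT for 7 dentate granule markers. Choroid plexus markers, 10 genes, ranged from 19172 to 70298 between cKO libraries and from 12234 to 236964 between WT libraries.

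All 61 genes had at least 1 normalized read in at least 4 libraries and were tested. A normalized read is a read divided by the library's size factor. Set per kilobase of annotated exon, so that genes can be compared with each other, levels spanned a wide range. The most abundant was the receptor gene Epha4, with 1830 ± 201.9 normalized reads per kilobase in cKO and 1856 ± 277 in WT (SD, n = 4), together with the transmembrane ligand gene Efnb3, with 1856 ± 117 in cKO and 1652 ± 300 in WT. The order of this pair differs between the groups, but the distance between them is within their spread. Next per kilobase stood the lipid-anchored semaphorin gene Sema7a (1275 ± 188 in cKO, 1261 ± 183 in WT), Sema6b, which encodes a membrane-spanning ligand (1171 ± 84.0 in cKO, 1097 ± 111 in WT), the ephrin gene Efna3 (1157 ± 63.9 in cKO, 1075 ± 59.4 in WT) and the netrin receptor gene Unc5a (1236 ± 45.5 in cKO, 1021 ± 112 in WT).

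The lowest levels per kilobase were those of Epha1 (3.63 ± 1.56 in cKO, 6.03 ± 3.06 in WT), Epha2 (5.89 ± 1.26 in cKO, 8.93 ± 2.42 in WT), Sema3a (14.4 ± 8.81 in cKO, 15.8 ± 4.07 in WT) and Efna4 (9.92 ± 7.58 in cKO, 17.1 ± 6.45 in WT). Added up, EphA receptors made up 19.9% of the level of all 61 genes in cKO and 22.1% in WT, the largest share of the 15 subfamilies in both groups. Ephrin-B genes made up 11.6% in cKO and 10.4% in WT, and netrins, the lowest of the 15, 1.16% in cKO and 1.18% in WT. Receptors as a whole reached 10156 ± 868 normalized reads per kilobase in cKO and 10181 ± 891 in WT, and ligands 8965 ± 376 in cKO and 8577 ± 871 in WT (SD, n = 4). None of the 15 subfamily sums separated the cKO from the WT libraries.

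**Figure D1:**
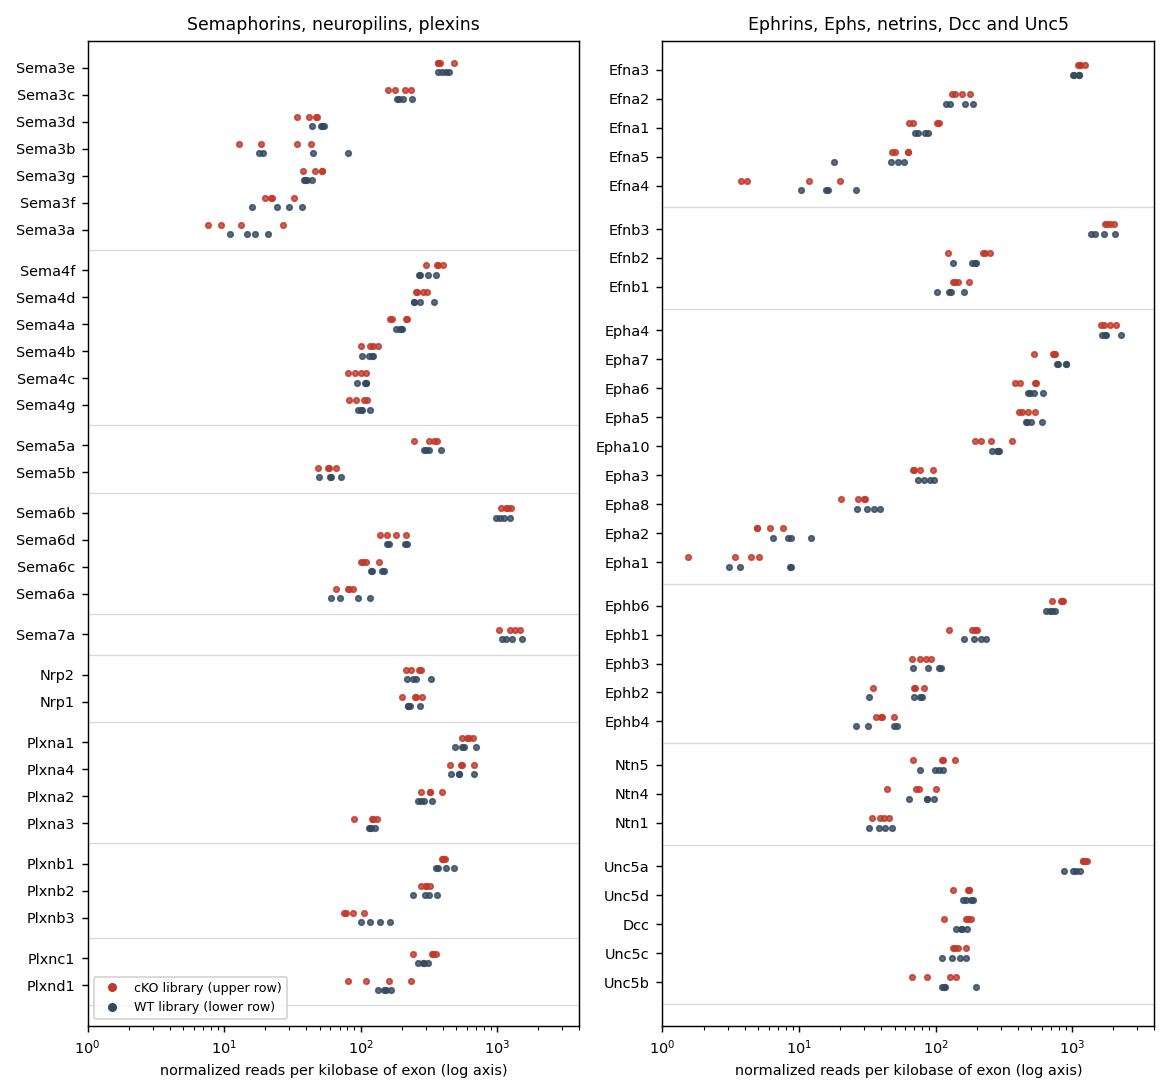
Normalized reads per kilobase of annotated exon (log axis) for the 61 genes, by subfamily, with 1 point per library, the 4 cKO libraries in the upper row of each gene and the 4 WT libraries in the lower row. Epha4 and Efnb3 stand highest and Epha1 lowest, and for most genes the rows of points cover the same range.

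No member of these families passed the test between cKO and WT. limma called 0 of the 61 at an adjusted p under 0.05 (Benjamini-Hochberg over 26135 genes), where it called 5 genes, or 0.0191%, of all genes tested, and limma-voom on recovered reads also called 0. At an unadjusted p under 0.05 limma gave 4 of the 61 (6.56%), and limma-voom also 4, against 8.67% of all genes tested. The cKO and WT libraries did not overlap at 2 of the 61 (3.28%), against 4.92% of all genes tested. Both shares of the guidance genes lie near or under the background. Without cKO replicate 2 the unadjusted count was 8 and without WT replicate 1 it was 2. The count without overlap was 7 without cKO replicate 2, 4 without cKO replicate 3 or 4, 6 without WT replicate 3 and 4 without WT replicate 4. With a library left out, groups overlap less readily by construction. No share of all genes was set beside these leave-out counts, so they cannot be read against the shares above. The authors' deposited table lists 0 of the 61 at an FDR under 0.05, the lowest being 0.0568 for Plxnb3.

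The data also bound how large a difference in this bulk tissue could be. Like the p-values, these bounds rest on how much libraries of a group vary, part of which may be technical. The 95% interval of the fold change, from limma's moderated error, lay inside 1.5-fold in both directions for 45 of the 61 genes (73.8%), against 41.6% of all genes tested, a group with many genes of few reads. The median log2 fold change was −0.04 over the 61 and −0.02 over all genes tested, with 25 positive and 36 negative values among the 61. The median size of the log2 fold change, whatever its sign, was 0.11 over the 61 and 0.19 over all genes tested. The sign of the median over the 61 turned without cKO replicate 2 (0.0018), without WT replicate 3 (0.024) and with an oligodendrocyte covariate (0.11). For the 16 genes outside the bound, among them Epha1, Epha2, Efna4, Sema3a, Sema3b and Ephb2, these libraries do not show whether a difference of that size exists.

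**Figure D2:**
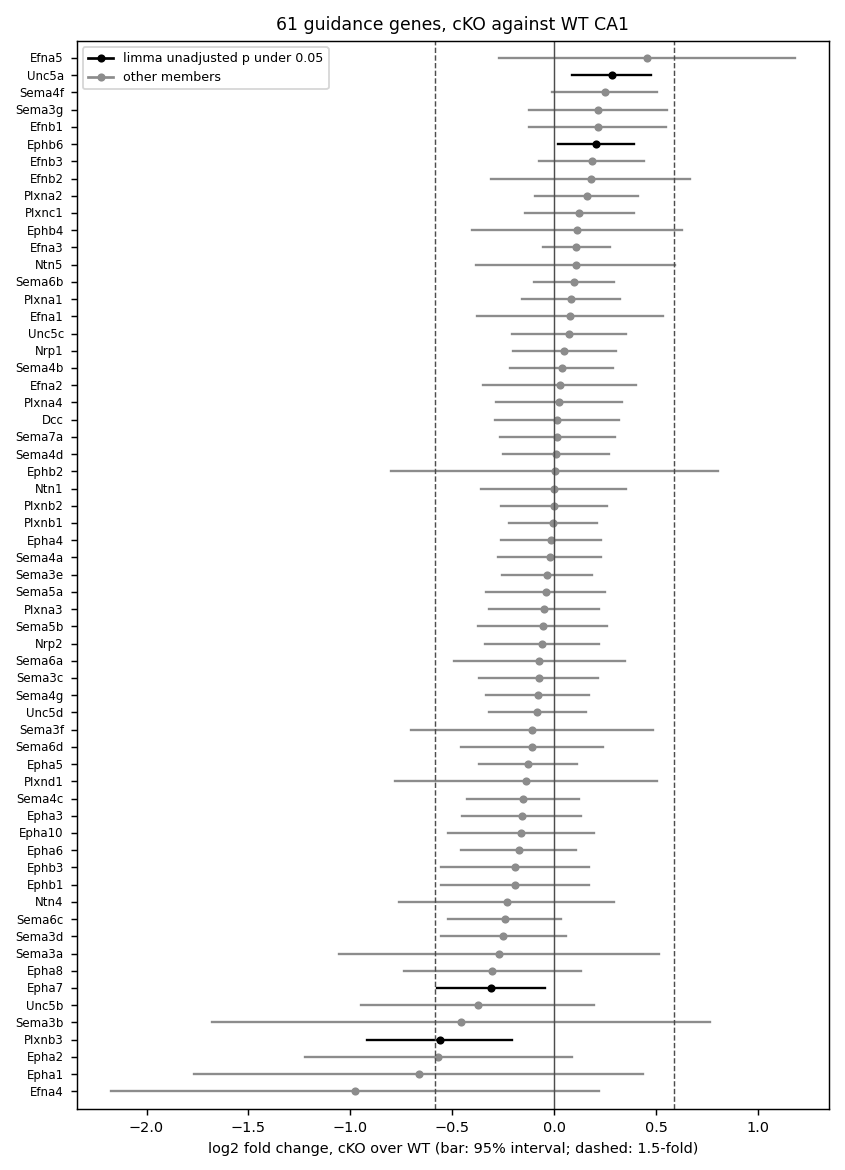
Log2 fold change of cKO over WT for the 61 genes, sorted, with the 95% interval from limma as a bar and dashed lines at 1.5-fold. The 4 black genes, Unc5a, Ephb6, Epha7 and Plxnb3, have an unadjusted p under 0.05, and the widest intervals are those of Sema3b, Efna4, Epha1 and Ephb2.

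The gene with the smallest unadjusted p was Plxnb3 (ENSMUSG00000031385), a B plexin that receives Sema5a and is known from oligodendrocytes. It had 493, 511, 571 and 683 normalized reads in the cKO libraries, against 899, 651, 1059 and 757 in the WT libraries. The highest cKO library lay just above the lowest WT library, so the groups overlapped. The mean was 565 ± 85.6 in cKO and 842 ± 177 in WT (SD, n = 4), 67.1% of the WT level (log2 fold change −0.56, SE 0.16, limma adjusted p = 0.496). Its 95% interval ran from 0.528 to 0.867 times the WT level.

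The netrin receptor gene Unc5a (ENSMUSG00000025876) had 5015, 4985, 5210 and 5393 normalized reads in cKO, against 3625, 4411, 4732 and 4259 in WT. All 4 cKO libraries exceeded all 4 WT libraries (log2 fold change 0.28, SE 0.087, limma adjusted p = 0.496). The 95% interval of 1.06 to 1.39 times the WT level stays inside 1.5-fold. In the annotation its exons overlap those of Hk3 on the opposite strand, and which strand the authors counted is not stated in the labels.

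Epha7 (ENSMUSG00000028289), an EphA receptor gene, had 5165, 7265, 7450 and 7140 normalized reads in cKO, against 8887, 7795, 8957 and 7590 in WT. All 4 cKO libraries lay under all 4 WT libraries, with cKO replicate 1 far below the rest (log2 fold change −0.31, SE 0.12, limma adjusted p = 0.524). Without cKO replicate 1 the log2 fold change was −0.19, less than its value with all 8 libraries by more than 1.5 times.

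Ephb6 (ENSMUSG00000029869) encodes an EphB receptor without kinase activity. It had 3156, 2667, 3128 and 3237 normalized reads in cKO, against 2438, 2615, 2663 and 2836 in WT. The overlap came from cKO replicate 2, which lay under WT replicate 4 (log2 fold change 0.21, SE 0.084, limma adjusted p = 0.540).

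**Figure D3:**
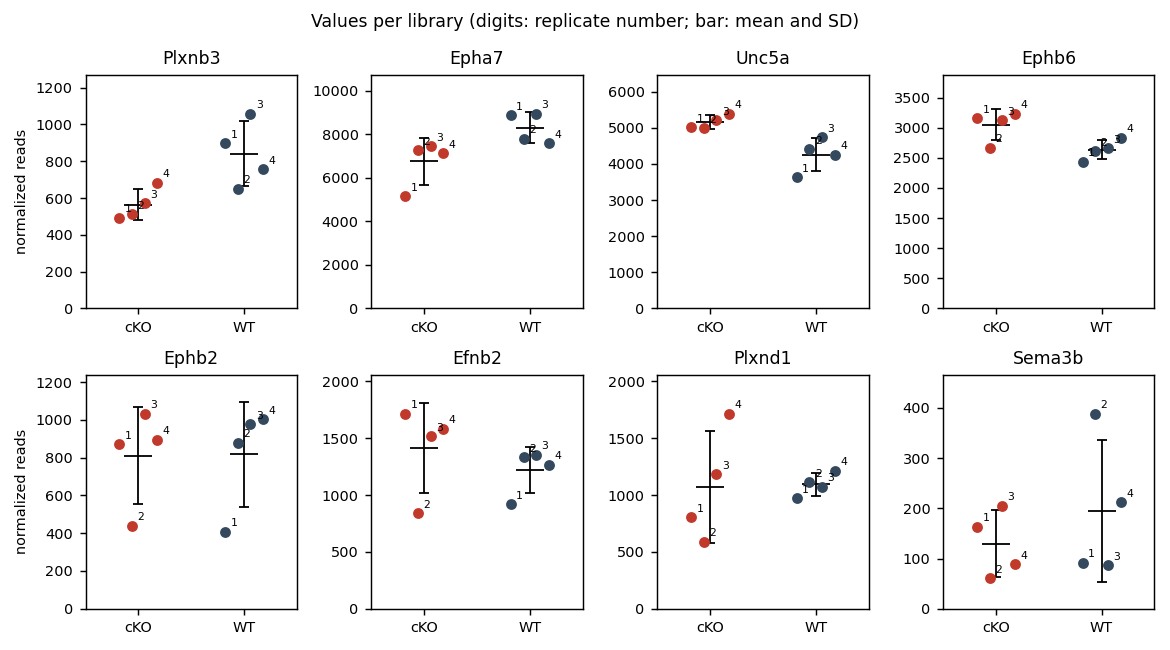
Normalized reads of 8 guidance genes in each cKO and WT library, labelled by replicate number, with the mean and SD as bars. Unc5a and Epha7 separate the groups, Plxnb3 and Ephb6 overlap slightly, and Ephb2, Efnb2, Plxnd1 and Sema3b vary far more between libraries than between groups.

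The promoters of these 4 genes are shown because they carry the smallest p-values of the 61. Each is the 250 bases before the transcript start in RefSeq's GRCm38.p6, a later build than the mm9 of the submitters' processing notes, on the plus strand, 5′ to 3′, with each CG dinucleotide in capitals. They lie at chrX:73756853-73757102 for Plxnb3, chr4:28812881-28813130 for Epha7, chr6:41605261-41605510 for Ephb6 and chr13:54949161-54949410 for Unc5a, and for Epha7 the first of 2 listed starts was taken.
Plxnb3: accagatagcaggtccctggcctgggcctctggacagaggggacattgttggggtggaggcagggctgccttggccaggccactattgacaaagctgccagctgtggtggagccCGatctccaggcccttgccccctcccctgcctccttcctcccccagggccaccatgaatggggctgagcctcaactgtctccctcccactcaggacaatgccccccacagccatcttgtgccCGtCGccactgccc
Epha7: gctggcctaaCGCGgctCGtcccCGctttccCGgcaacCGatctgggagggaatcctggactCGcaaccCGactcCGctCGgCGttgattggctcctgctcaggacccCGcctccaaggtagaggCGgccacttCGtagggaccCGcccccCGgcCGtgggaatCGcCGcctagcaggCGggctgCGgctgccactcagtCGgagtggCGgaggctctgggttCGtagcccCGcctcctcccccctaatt
Ephb6: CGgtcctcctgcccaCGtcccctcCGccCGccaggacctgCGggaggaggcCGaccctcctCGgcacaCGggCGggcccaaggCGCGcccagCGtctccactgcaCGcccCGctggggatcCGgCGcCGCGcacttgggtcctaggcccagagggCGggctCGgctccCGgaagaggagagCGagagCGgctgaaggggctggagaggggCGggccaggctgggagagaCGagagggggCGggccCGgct
Unc5a: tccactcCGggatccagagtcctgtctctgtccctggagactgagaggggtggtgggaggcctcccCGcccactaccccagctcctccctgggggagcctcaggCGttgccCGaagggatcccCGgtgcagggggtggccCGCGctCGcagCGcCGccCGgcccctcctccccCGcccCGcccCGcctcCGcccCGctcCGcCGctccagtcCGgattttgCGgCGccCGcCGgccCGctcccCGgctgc

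Plxnb3 has 3 CG dinucleotides in this window, a number that 71.0% of the 32851 promoters in the table reach or exceed. Epha7 and Unc5a have 25 each, which 10.7% reach, and Ephb6 has 27, which 8.56% reach. The median was 16.5 over the 52 members with a listed promoter and 6 over all promoters in the table. The GC box GGGCGG was searched on both strands, counting only matches that share no base. It occurs 5 times in the Ephb6 window, 4 times in that of Unc5a, 1 time in that of Epha7 and 0 times in that of Plxnb3. It is found in 75% of the members' promoters against 32.7% of all. These letters describe the sequences and say nothing of which factors bind there. The comparison took all promoters in the table and was not matched for expression, so the contrast may not be particular to these families.

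Plxnb3 followed the oligodendrocyte markers across libraries. The mean log2 value of 13 such markers, which do not include Plxnb3, put the 8 libraries in the same order as Plxnb3 did, within each group and across both (Spearman rho = 1, two-sided exact permutation p = 4.96e-05, the smallest that 8 libraries can give, adjusted p = 0.00605 over 122 relations; Pearson r = 0.961, exact permutation p = 0.000422, adjusted p = 0.0514). Without the 2 libraries farthest from the median marker level, cKO replicates 1 and 2, r was 0.950. The identical order rests on a near tie in marker level between cKO replicate 3 (11.5735) and WT replicate 2 (11.574). By the summed reads of the markers the order differed, with cKO replicate 2 (138816) above WT replicate 2 (123469). For these relations and those below, libraries were shuffled across both groups. Plxnb3 and the markers were both lower on average in cKO, so the p-values also take in the shift between groups. Groups of 4 are too small to test alone. The 13 markers, none of them at 0, summed to 100552 to 155575 normalized reads in cKO and to 123469 to 180887 in WT (two-sided exact permutation p = 0.20), and all 13 had negative log2 fold changes, with a median of −0.31 and 0 past limma over all genes (4 at an unadjusted p under 0.05). With the mean marker level as a covariate, the Plxnb3 difference was −0.15 (SE 0.14, limma adjusted p = 0.713). That mean log2 level was 11.2 to 11.8 in cKO and 11.6 to 12.1 in WT, so it partly follows the groups. A fit with it cannot tell a difference that goes with the group from one that goes with the markers. In bulk tissue, fewer cells of a type and less RNA per cell cannot be told apart.

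Epha7 was also higher in libraries with more of these markers, short of the threshold after adjustment (r = 0.797, exact permutation p = 0.00620, adjusted p = 0.252; rho = 0.810, exact permutation p = 0.0218, adjusted p = 0.585). Its log2 fold change with the covariate, which partly follows the groups, was −0.10 (SE 0.14, limma adjusted p = 0.828). Such a relation was not particular to Epha7. Unc5b had r = 0.816 (exact permutation p = 0.0102, adjusted p = 0.310) and Epha5 r = 0.781 (exact permutation p = 0.0190, adjusted p = 0.419). Others went the other way, such as Sema4b (r = −0.595). Beside Unc5a and Ephb6, 5 pan-neuronal markers all had positive values, with a median log2 fold change of 0.22. They summed to 197426 to 226728 normalized reads in cKO and 174435 to 200239 in WT (two-sided exact permutation p = 0.0571), with 0 past limma over all genes and 4 at an unadjusted p under 0.05. Other neuronal lists were mixed, with positive values for 3 of 6 CA1, 3 of 7 CA3 and CA2, and 2 of 7 dentate granule markers. Interneuron markers had 7 of 8 positive, astrocyte markers 6 of 8 and microglia markers 6 of 7. The part of any of these cell types in the values of Unc5a and Ephb6 was not tested.

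**Figure D4:**
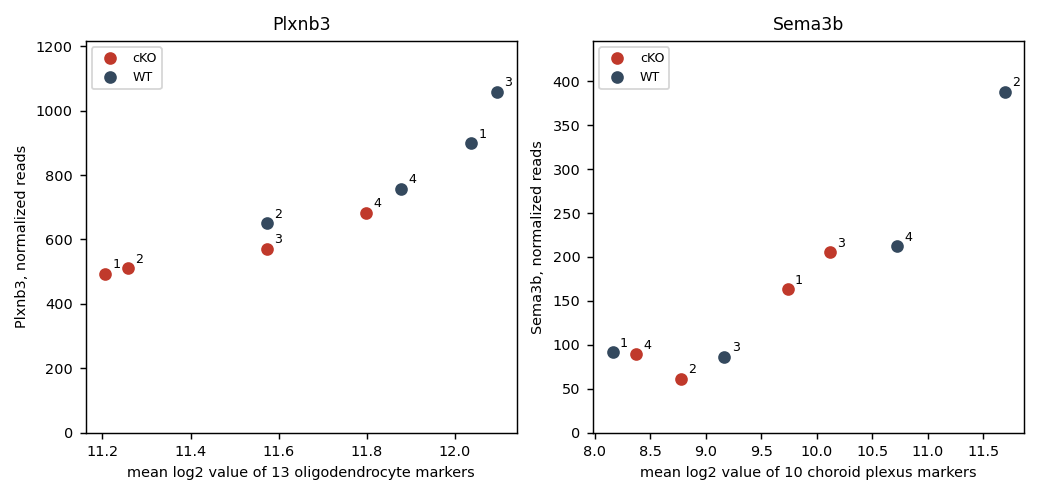
Normalized reads of Plxnb3 against the mean log2 value of 13 oligodendrocyte markers, and of Sema3b against that of 10 choroid plexus markers, with 1 point per cKO or WT library labelled by replicate number. Plxnb3 and its markers order all 8 libraries alike, and the 4 libraries highest in choroid plexus markers are the 4 highest in Sema3b.

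Among the ligands, the secreted class 3 semaphorins had 6 of 7 negative log2 fold changes (median −0.11), none with an unadjusted p under 0.05. The median was −0.24 without WT replicate 1, −0.032 without WT replicate 2, −0.026 without cKO replicate 1, −0.25 without cKO replicate 4, −0.19 with array weights and −0.04 with the choroid plexus covariate. Without WT replicate 1, or with either covariate, 4 of 7 were negative, and without WT replicate 2, without cKO replicate 1 or 3, or with quantile normalization 5 of 7. Sema3e, which can act on Plxnd1 without a neuropilin, was the class 3 gene with the most reads, with 4450, 3438, 3392 and 3544 normalized reads in cKO and 4090, 3913, 3680 and 3445 in WT. These values overlap fully, and the interval of the ratio, 0.837 to 1.14, is narrow. Sema3a, the classical repellent, had 106, 186, 132 and 376 in cKO and 202.9, 153, 232 and 288 in WT, and its interval of 0.481 to 1.43 is wide. Sema3c averaged 1393 ± 239 in cKO and 1459 ± 175 in WT, and Sema3d 367 ± 54.4 in cKO and 434 ± 37.0 in WT (SD, n = 4). Sema3g was the 1 class 3 gene with a positive value, at 214 ± 30.6 in cKO and 184 ± 12.1 in WT, and Sema3f stood at 90.2% of WT.

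Sema3b, another class 3 gene, was the most uneven semaphorin. It had 163, 61.2, 205 and 89.1 normalized reads in cKO and 91.5, 388, 86.5 and 212 in WT. The 4 libraries with the most Sema3b, WT replicates 2 and 4 and cKO replicates 3 and 1, were in the same order the 4 with the highest choroid plexus markers (r = 0.926, two-sided exact permutation p = 0.00176, adjusted p = 0.107 over 122 relations; rho = 0.786, exact permutation p = 0.0279, adjusted p = 0.585; r = 0.894 without WT replicates 1 and 2). Its log2 fold change was −0.46 (SE 0.54), and 0.0066 (SE 0.26) with choroid plexus level as a covariate. With the oligodendrocyte covariate it was −1.21 (SE 0.70). It was −0.032 without WT replicate 2, −0.15 without cKO replicate 2, and between −0.75 and −0.32 when any other library was left out. All 10 choroid plexus markers had negative log2 fold changes, 0 of them past limma over all genes, and none was at 0. Sema3b was singled out after its values were seen. By rank, Ntn4 followed the choroid plexus markers more closely (rho = 0.833, exact permutation p = 0.0154, adjusted p = 0.585), though its r was lower (0.660). Epha1, a gene of few reads (6.02 to 34.5 normalized reads per library), was also higher in libraries with more of these markers, short of the threshold after adjustment. It had r = 0.788 (exact permutation p = 0.0206, adjusted p = 0.419) and rho = 0.738 (exact permutation p = 0.0458, adjusted p = 0.585).

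The membrane-bound semaphorins were close between groups. Sema4d, a ligand of Plxnb1, had 2187, 1948, 1994 and 2348 normalized reads in cKO and 1883, 1890, 2653 and 2075 in WT, with overlapping groups. Sema4f was the class 4 gene farthest from equality, at 1900 ± 214 in cKO and 1602 ± 220 in WT (SD, n = 4; log2 fold change 0.25, SE 0.12, limma adjusted p = 0.587). The other 4 class 4 genes, Sema4a, Sema4b, Sema4c and Sema4g, had between 90.4% and 102.8% of their WT level. Sema4c, the lowest of these, had 418, 502, 368 and 463 in cKO and 435, 498, 501 and 503 in WT, with overlapping groups. Sema5a, which carries thrombospondin repeats, had 4555, 5892, 6484 and 6731 in cKO and 5602, 5446, 7288 and 5924 in WT, and Sema5b stood at 95.9% of WT.

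Of class 6, Sema6b had 4225, 4562, 4792 and 5004 normalized reads in cKO and 3858, 4174, 4893 and 4482 in WT. Sema6c averaged 666 ± 93.5 in cKO and 787 ± 90.1 in WT (SD, n = 4; log2 fold change −0.24, SE 0.12, limma adjusted p = 0.602). Sema6a, known as a ligand of A plexins, stood at 92.5% and Sema6d at 92.8% of the WT level. Sema7a had 3416, 4064, 4468 and 4867 in cKO and 3600, 4249, 4970 and 3819 in WT, with overlapping groups. Its receptor gene Plxnc1 had 2997, 2016, 2806 and 2796 in cKO and 2203, 2433, 2615 and 2403 in WT, and cKO replicate 2 was the lowest library of all. Over all 20 semaphorins, 17 intervals lay inside 1.5-fold.

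Of the intervals of their 9 plexin receptors, 7 also lay inside 1.5-fold, all but those of Plxnb3 and Plxnd1. Plxna4, the plexin gene with the most reads, had 7695, 6334, 7722 and 9585 normalized reads in cKO and 6447, 7446, 9534 and 7387 in WT. The A plexins Plxna1, Plxna2 and Plxna3 stood at 105%, 112% and 97.5% of WT, and the B plexin gene Plxnb2 at 98.8%. Plxnb1, the B plexin gene with the most reads, had 3794, 3858, 3859 and 3954 in cKO and 3525, 3435, 4665 and 4045 in WT, with the cKO values inside the WT range. Plxnd1, the Sema3e receptor known from vessels, had 803, 589, 1182 and 1715 in cKO and 973, 1114, 1074 and 1214 in WT, so the cKO libraries spread far more widely (coefficient of variation 46.0% in cKO and 9.14% in WT, no test of the spread was made). The neuropilin gene Nrp2 had 3139, 2561, 3263 and 2762 in cKO and 2576, 2862, 3854 and 3019 in WT. Nrp1 had 2774, 1959, 2473 and 2428 in cKO and 2178, 2171, 2676 and 2256 in WT, overlapping throughout.

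Ephrins had positive log2 fold changes at 7 of 8 genes (median 0.14) and EphA receptors negative ones at all 9 (median −0.17), though no ephrin and of the EphA genes only Epha7 had an unadjusted p under 0.05. With the oligodendrocyte covariate 6 of the 9 EphA values were negative, and without WT replicate 3, without cKO replicate 1 or 2, or with array weights 8 of 9. The 3 ephrin-B values were positive in all 17 alternatives. Without cKO replicate 3, 5 of the 8 ephrins were positive, and without WT replicate 1 or 2 or cKO replicate 2, 6 of 8. The ephrin median was 0.079 without WT replicate 1 and 0.26 with the oligodendrocyte covariate, and the EphA median −0.33 without cKO replicate 2 and −0.10 with that covariate. These counts and medians are descriptions, since the genes of a family share libraries.

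Efnb3, a ligand of Ephb receptors and Epha4, had 5569, 6402, 5981 and 5682 normalized reads in cKO and 4378, 4687, 6519 and 5451 in WT. WT replicate 3 was the highest library of all, so the groups overlapped (log2 fold change 0.18, SE 0.12, limma adjusted p = 0.665). Efna3, which in mouse hippocampus is known as the astrocytic partner of Epha4, had 2763, 3047, 2703 and 2756 in cKO and 2502, 2481, 2732 and 2750 in WT. Its interval of 0.961 to 1.21 times the WT level is the narrowest of the ephrins. Efna1, Efna2 and Efnb1 stood at 108%, 100.9% and 115% of WT. Efna4 had 6.02 to 31.7 in cKO and 16.6 to 41.5 in WT, too few reads for a bound inside 1.5-fold.

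Epha4 itself, the EphA gene with the most reads, had 13878, 13060, 15252 and 16765 normalized reads in cKO and 14309, 13981, 18228 and 13263 in WT. The mean ratio was 98.6% with an interval of 0.834 to 1.17. Epha5 averaged 7735 ± 941 in cKO and 8465 ± 1098 in WT, and Epha6 2478 ± 419 in cKO and 2779 ± 322 in WT (SD, n = 4). Epha10, another Eph without kinase activity, had its highest library in cKO replicate 2 (2590), while the other cKO libraries had 1407 to 1845 and the WT libraries 1852 to 2104. Epha3 and Epha8 stood at 89.8% and 81.1% of WT.

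Ephb2 and Efnb2, a receptor and ligand pair of synapses, were low in the same libraries. Ephb2 had 872, 440, 1032 and 896 normalized reads in cKO and 409, 879, 977 and 1004 in WT. Efnb2 had 1714, 838, 1518 and 1583 in cKO and 921, 1334, 1354 and 1268 in WT. For both genes cKO replicate 2 and WT replicate 1 were the lowest of their group, a pattern noticed after the values were seen. It is not particular to this pair. The same libraries were the lowest of their groups for Plxna1, Plxna4, Plxnc1, Plxnd1, Nrp2, Sema4d, Efnb1, Ephb6 and Unc5a, among others. Ephb1 also had its lowest cKO value in replicate 2 (871, against 1288 to 1403 in the other cKO libraries and 1129 to 1627 in WT). The log2 fold change of Ephb2 was 0.0024 (SE 0.35), with −0.30 without WT replicate 1 and 0.27 without cKO replicate 2. Efna5, a repellent for axons in topographic maps, likewise had 72.8 in WT replicate 1 against 189 to 236 in the other WT libraries and 192 to 254 in cKO, and its log2 fold change of 0.45 (SE 0.33) became 0.072 without WT replicate 1. Ephb1, Ephb3 and Ephb4 stood at 88.0%, 86.7% and 105% of WT.

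Ntn4, a laminin-binding netrin and the netrin gene with the most reads, had 282, 164, 378 and 270 normalized reads in cKO and 238, 363, 323 and 324 in WT. Ntn1, the classical attractant, averaged 252 ± 29.8 in cKO and 253 ± 42.1 in WT, and Ntn5 240 ± 64.7 in cKO and 218 ± 34.0 in WT (SD, n = 4). Dcc, the attractive receptor gene, averaged 2095 ± 398 in cKO and 2045 ± 159 in WT, with an interval of 0.819 to 1.248. Unc5c averaged 2804 ± 279 in cKO and 2691 ± 467 in WT. Unc5b had 544, 422, 795 and 884 in cKO and 730, 700, 1237 and 725 in WT, and Unc5d had 1618, 1237, 1629 and 1579 in cKO and 1679, 1534, 1455 and 1732 in WT. Of the 5 receptor genes of this family Unc5a alone separated the groups.

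Further genes of these pathways were set beside them. Of 38 guidance partners in the table, limma passed 1, the Robo family receptor gene Robo3, which fell to 589 ± 71.1 normalized reads in cKO, against 1296 ± 190 in WT (SD, n = 4; log2 fold change −1.13, SE 0.13, adjusted p = 0.0168), and 22 of 38 had positive values (median log2 fold change 0.025). The Robo3 call was lost without WT replicate 2 (limma adjusted p = 0.0704) or 4 (0.111), without cKO replicate 1 (0.0653), 3 (0.0796) or 4 (0.0791), and with the choroid plexus (0.0661) or oligodendrocyte covariate (0.146), while its log2 fold change stayed between −1.27 and −1.04 under all 17 alternatives. The netrin and repulsive guidance molecule receptor gene Neo1 averaged 3937 ± 248.9 in cKO and 3712 ± 388 in WT. Of the intracellular effectors on the list, 63 had positive and 40 negative values (median log2 fold change 0.036), 0 passed limma, and 8 higher and 1 lower in cKO had an unadjusted p under 0.05. These make 8.74% of the effectors, against 8.67% of all genes tested. By unadjusted p the first of them, Limk1, a kinase that acts on cofilin, had 1419 ± 95.9 in cKO and 1048 ± 241 in WT (log2 fold change 0.46, SE 0.15, limma adjusted p = 0.496). The next, Pxn, which encodes the adhesion adaptor paxillin, had 1197 ± 143 in cKO and 1602 ± 275 in WT (log2 fold change −0.41, SE 0.13, limma adjusted p = 0.496).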

How the data were processed

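Values for 34094 genes were deposited on a log2 scale, 1 column per library, beside group means, which were not used, and the authors' own comparison of cKO with WT as log2 fold changes, p-values and FDRs, whose test is not stated in the table. STAR, StringTie and DESeq2 were used, with mm9 as the build, per the submitters' processing notes, which give no roles or versions. Each deposited log2 value is log2(reads / size factor + 1): 100% of values gave whole reads (tolerance 0.001 reads).

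These log2 values, with their pseudocount of 1, entered limma 3.58.1 (R 4.3.3, mean-variance trend, robust, no covariate) for cKO minus WT. The 26135 genes reaching 1 normalized read in 4 or more libraries were tested, with Benjamini-Hochberg adjustment and a threshold of 0.05. Fold changes on this scale understate genes of few reads. Single values were compared by exact permutation over all 70 splits. Exon lengths and overlaps came from GENCODE M21 (GRCm38), matched by gene ID. The annotation behind the deposited values may differ. In it the exons of 14 members overlap a gene on the opposite strand and those of 3 a gene on the same strand, so some reads may be shared.

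Values in every library are given for members with an unadjusted p under 0.05, without overlap, at a deposited FDR under 0.05, with a library far from its group, and for the member with the most reads in each subfamily. Members, lists and rules were chosen with earlier results of these data known. Sema3a, Sema3b, Ephb1, Ephb2, Efnb2, Efna4, Efna5, Epha10 and Plxnd1 were singled out after their values were seen. The procedure was tested on simulated data. The alternatives tried included a minimum of 10 or no minimum, quantile normalization, a pseudocount of 0.1, limma-voom on recovered reads with TMM scaling, array weights, a replicate block, choroid plexus and oligodendrocyte covariates and leaving out each library. Figures used matplotlib 3.10.9.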

Additional observations from a re-analysis of the deposited data

Results flagged for a closer look

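In 6 of 122 groups of 4 libraries, 1 library lay far from the other 3 (Dixon's gap test at 95%), where chance gives about 1 in 20. Sema3e had 4450 normalized reads in cKO replicate 1, against 3392 to 3544 in the other cKO libraries. Epha7 had 5165 in cKO replicate 1, against 7140 to 7450, and Unc5d had 1237 in cKO replicate 2, against 1579 to 1629. In WT, Unc5b had 1237 in replicate 3, against 699.9 to 730, and Nrp1 had 2676 in replicate 3, against 2171 to 2256. Sema4c had 435 in WT replicate 1, against 498 to 503. What sets these libraries apart was not tested.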

How the results depend on the processing

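No guidance gene passed limma over all genes under any of the 17 alternatives. The count at an unadjusted p under 0.05 was 4, between 3 (quantile normalization) and 6 (array weights) under settings that kept all libraries, and between 2 and 8 when 1 library was left out. The count without overlap was 2, and between 2 and 7 when 1 library was left out, where 3 against 4 overlap less readily by construction. No share of all genes was set beside the leave-out counts. Unc5a kept an unadjusted p under 0.05 in 17 of 17 alternatives (log2 fold change 0.21 to 0.33), Plxnb3 in 16 (−0.68 to −0.15), Epha7 in 14 (−0.37 to −0.10) and Ephb6 in 10 (0.16 to 0.27). Brpf1 had log2 fold changes of −0.63 to −0.53 and adjusted p of 0.0619 to 0.484. Of 1037 alternative values of single genes, 36 moved by 1 SE or more, 30 of them with the oligodendrocyte covariate. The replicate block gave 0 guidance genes past limma and 4 at an unadjusted p under 0.05, with an adjusted p of 0.125 for Robo3. Libraries of the same number did not deviate together (r from −0.04 to 0.029), and not every library correlated best with its own number, so the numbers were not taken as pairs. Depth limits Epha1, Epha2 and Efna4 most.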
